A study of Saccharomyces cerevisiae with 9 samples.

Results

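Budding yeast takes up sulfur as sulfate, methionine, S-methylmethionine or S-adenosylmethionine, and 8 genes that carry out or follow that uptake were examined across all 9 arrays of the study. They are MUP1 (YGR055W) and MUP3 (YHL036W), the high- and low-affinity methionine permeases, MMP1 (YLL061W), the S-methylmethionine permease, SAM3 (YPL274W), the S-adenosylmethionine permease, SUL1 (YBR294W) and SUL2 (YLR092W), the sulfate permeases, and SAM1 (YLR180W) and SAM2 (YDR502C), the S-adenosylmethionine synthetases. They were chosen by systematic name for this shared role, with earlier results of these data known. All 8 had a value on every array, out of 6268 features in the table and 6220 with a value on all 8 arrays of the time courses.

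Sulfate that enters the cell is reduced to sulfide and built into homocysteine and methionine. The synthetases join methionine to ATP to give S-adenosylmethionine, the methyl donor of the cell, and the permeases allow methionine and its derivatives to be taken from the medium instead. The transcription activator Met4, held on DNA by Cbf1 or by Met31 and Met32, drives most genes of this pathway when S-adenosylmethionine is scarce, and the ubiquitin ligase complex that contains Met30 restrains it. Surface permeases such as Mup1 are also controlled after translation, by ubiquitination through Rsp5 and endocytosis, which transcript ratios do not record. Ypk1 and Ypk2 are protein kinases of the AGC family that act below TORC2, a complex at the plasma membrane, and cells need at least 1 of them to grow.

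Each array compared poly(A) RNA of 2 cultures of Saccharomyces cerevisiae, labelled Cy3 and Cy5. Every strain was ypk1 delta ypk2 delta, lived on a plasmid with a single kinase gene, and grew in SCD-Leu, a synthetic medium without leucine. In the Ypk1 series, cells with analog-sensitive (AS) Ypk1 in Cy5 were set against cells with wild-type (WT) Ypk1 in Cy3, both given 2,3-DMB-PP1 at 0.5 µM for 0, 15, 30 or 60 min. In the Ypk2 series, AS Ypk2 cells were set against WT Ypk2 cells, both given 3-MB-PPI at 1 µM for the same times. An AS kinase carries an enlarged ATP pocket that admits a bulky inhibitor, so that only the AS cells of a pair should lose the kinase. The remaining array set WT Ypk2 cells (Cy5) against WT Ypk1 cells (Cy3) with no inhibitor. There was 1 array for each condition and no dye swap. The strains depend on a plasmid copy of the kinase, and the labels do not say whether the times come from separate cultures.

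All values below are log2 ratios of Cy5 over Cy3 with the median of the array set to 0, so a negative ratio means less transcript in AS than in WT cells relative to the median gene. A later ratio is the mean over 15, 30 and 60 min with its standard deviation (SD, n = 3), and a change is the later ratio minus the 0 min ratio with its standard error (SE). A member passed when its limma adjusted p, taken over all 6220 features, was under 0.05. The adjusted p measures spread between times, not between independent cultures. On the array of the WT strains YPK2 stood at 5.49 and YPK1 at −4.33, which sets Cy5 over Cy3 as the direction there, and the other arrays were taken to run the same way. The plasmid kinase itself had a ratio from 0.73 to 2.44 for YPK1 in the Ypk1 series and from 1.06 to 1.53 for YPK2 in the Ypk2 series. YPK2 in the Ypk1 series, whose strains lack that gene, also passed as higher, with a later ratio of 0.96 (limma adjusted p = 0.0173). YPK1 in the Ypk2 series did not pass, at −0.11 (adjusted p = 0.867). Whether a probe binds both kinase transcripts was not tested. Before centring, the array medians ran from −0.52 to 0.23.

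After inhibitor, most of the 8 genes gave less transcript in AS than in WT cells, the S-methylmethionine and S-adenosylmethionine permease genes most of all. SAM2 stood apart with more, but it was already higher at 0 min, at 1.32 in the Ypk1 and 0.98 in the Ypk2 series. MUP1 and MUP3 were likewise already lower at 0 min of the Ypk2 series, at −0.60 and −0.43. For Ypk1 the median later ratio of the 8 genes was −0.58, against −0.01 over all features, and MMP1 and SAM3 passed as lower. For Ypk2 the median was −0.59, against 0.01 over all features, and MMP1, SAM3 and SUL2 passed as lower. With both series averaged, MMP1, SAM3, SUL2, MUP1 and MUP3 passed as lower, SAM2 passed as higher, and SUL1 and SAM1 did not pass. The ratio was below 0 on all 6 later arrays for 6 of the 8 genes, all but SUL1 and SAM2, as it was for 15.2% of all features.

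These counts are read against how often any feature passed. For Ypk1 10.5% of features passed as lower, beside 2 of the 8 genes, and 10.9% passed as higher, beside 0. For Ypk2 4.73% passed as lower, beside 3 of the 8, and 6.98% as higher, beside 0. For the mean of both series 15.1% passed as lower, beside 5 of the 8, and 16.1% as higher, beside 1. The centring matters for these shares. Without it the median feature had a later ratio of −0.29 for Ypk1 and −0.28 for Ypk2. The part of all calls that was higher then went from 51.0% to 22.5% for Ypk1 and from 59.6% to 26.9% for Ypk2.

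**Figure D1:**
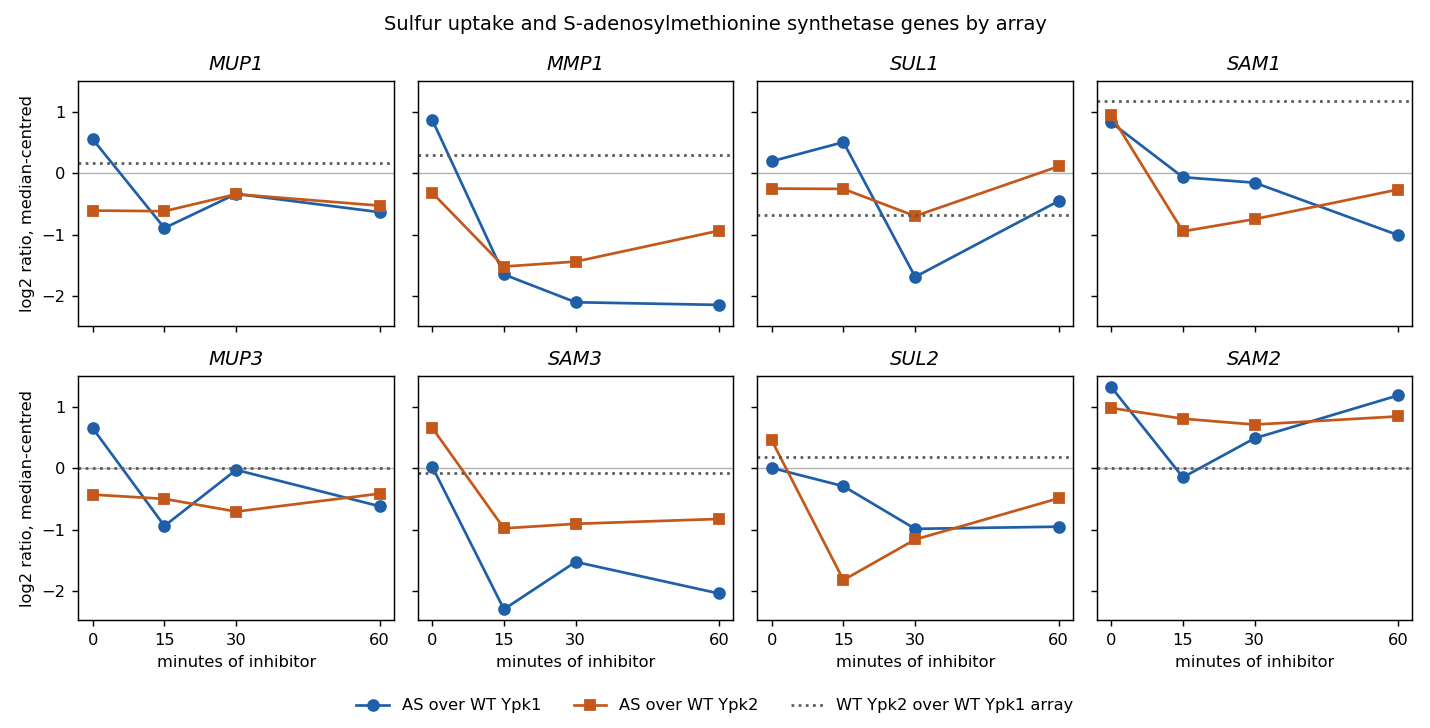
Log2 ratio of AS over WT cells (y axis, array median at 0) against minutes of inhibitor (x axis) for each of the 8 genes, with 1 array per point. Circles are the Ypk1 series, squares the Ypk2 series and the dotted line the array of WT Ypk2 over WT Ypk1 cells. MMP1 and SAM3 lie below 0 at every later time in both series, and SAM2 lies above 0 throughout the Ypk2 series.

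Counted on single arrays at 2-fold, the lower ratios were spread over all later times in the Ypk1 series and were early in the Ypk2 series. With AS Ypk1, 2 of the 8 genes were at least 2-fold lower at 15 min, where 12.8% of features were, 3 at 30 min (9.16% of features) and 3 at 60 min (9.03%). MMP1 and SAM3 made up the pair at 15 min, SUL1 joined them at 30 min and SAM1 at 60 min. With AS Ypk2, 2 of the 8 were at least 2-fold lower at 15 min (3.69% of features), 2 at 30 min (4.24%) and 0 at 60 min (6.62%). MMP1 and SUL2 were the pair at both times, and by 60 min the lowest of the 8 genes was MMP1 at −0.93.

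MMP1 encodes the permease that brings in S-methylmethionine, a plant-derived methyl donor that yeast can use to make methionine. Its ratio in the Ypk1 series was 0.88 at 0 min, then −1.65, −2.10 and −2.14 at 15, 30 and 60 min. It was thus on the AS side before the inhibitor and about as low at 30 as at 60 min. The later ratio of −1.96 ± 0.27 (SD, n = 3; adjusted p = 0.00175) is a 3.90-fold lower level in AS cells and placed MMP1 as number 29 from the bottom of 6220 features. With AS Ypk2, MMP1 went from −0.31 at 0 min to −1.52, −1.44 and −0.93. There it was low at 15 min and closer to its starting value at 60 min. The later ratio was −1.30 ± 0.32 (SD, n = 3; adjusted p = 0.00900), a 2.45-fold lower level. Leaving out 30 min (adjusted p = 0.157) or 60 min (0.0788) ended this Ypk2 call, and under each of these settings 0 of all features passed for Ypk2.

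SAM3 encodes the permease for S-adenosylmethionine itself. Its Ypk1 ratio was 0.03 at 0 min and then −2.30, −1.53 and −2.04. AS and WT cells were level at the start and far apart on every later array. The later ratio was −1.95 ± 0.39 (SD, n = 3; adjusted p = 0.00175), a 3.88-fold lower level. With AS Ypk2, SAM3 started on the AS side at 0.66 and then lay at −0.98, −0.91 and −0.83. These later values are among the closest together of the 8 genes, with a later ratio of −0.90 ± 0.08 (SD, n = 3; adjusted p = 0.0285), a 1.87-fold lower level. The Ypk2 call for SAM3 was lost when any of the 3 later times was left out, with adjusted p from 0.0554 to 0.208. MMP1 and SAM3 are related permeases, and the probes of the array are not described in the sources used here, so binding of both transcripts by a probe was not tested. Their ratios differed from each other by up to 0.97, at 0 min of the Ypk2 series.

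MUP1 encodes the main methionine permease of the plasma membrane. Its Ypk1 ratio stood at 0.56 at 0 min and then at −0.89, −0.33 and −0.63. All later values lay below the starting value and below 0. The later ratio of −0.62 ± 0.28 (SD, n = 3) did not pass (adjusted p = 0.0567). Its Ypk2 ratio was at −0.60 before the inhibitor and at −0.62, −0.34 and −0.52 after it. The lower level in AS Ypk2 cells was thus already there at 0 min, and the later ratio of −0.49 ± 0.14 (SD, n = 3) did not pass (adjusted p = 0.148).

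MUP3, the gene of the low-affinity methionine permease, gave values close to those of MUP1. Its Ypk1 ratio was 0.65 at 0 min and then −0.94, −0.03 and −0.62, with a later ratio of −0.53 ± 0.46 (SD, n = 3; adjusted p = 0.125). Its Ypk2 ratio was −0.43 at 0 min and then −0.50, −0.71 and −0.41, with a later ratio of −0.54 ± 0.15 (SD, n = 3; adjusted p = 0.160). MUP1 and MUP3 differed by no more than 0.37 on any time course array. Averaged over both series, the ratio was −0.56 ± 0.14 (SE; adjusted p = 0.0181) for MUP1 and −0.53 ± 0.16 (SE; adjusted p = 0.0335) for MUP3, in each case below 0 on 6 of 6 later arrays. Both of these calls were lost when any of the 3 later times was left out, with adjusted p from 0.0620 to 0.118 for MUP1 and from 0.0948 to 0.148 for MUP3.

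SUL1 and SUL2 encode the permeases that import sulfate, the start of the assimilation pathway. SUL2 in the Ypk2 series had a ratio of 0.46 at 0 min and then −1.82, −1.16 and −0.49. It had its lowest value at 15 min and lay nearer to 0 at each of the following times. The later ratio was −1.16 ± 0.67 (SD, n = 3; adjusted p = 0.0311), a 2.23-fold lower level in AS cells. With AS Ypk1, SUL2 took the opposite course in time, with 0.01 at 0 min and then −0.29, −0.99 and −0.95. There the later ratio of −0.74 ± 0.39 (SD, n = 3) did not pass (adjusted p = 0.0890), though it did without 15 min (−0.97, adjusted p = 0.0375). The Ypk2 call for SUL2 was lost without 15, 30 or 60 min, with adjusted p from 0.0722 to 0.226, and with that series fitted alone (adjusted p = 0.0522). The mean ratio of both series was −0.95 ± 0.20 (SE; adjusted p = 0.00758), lost without 30 min (adjusted p = 0.0859).

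SUL1 showed no steady course. Its Ypk1 ratio was 0.20 at 0 min and then 0.51, −1.69 and −0.45, and its Ypk2 ratio was −0.25 at 0 min and then −0.25, −0.69 and 0.12. In each series the 30 min array held its lowest value, and the later values lay on both sides of 0. The later ratio was −0.54 ± 1.10 (SD, n = 3; adjusted p = 0.322) in the Ypk1 series and −0.28 ± 0.41 (SD, n = 3; adjusted p = 0.680) in the Ypk2 series. Without 30 min the Ypk1 value was 0.031. SUL1 was above SUL2 at all 3 later times of the Ypk2 series, by 1.57, 0.47 and 0.60.

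**Figure D2:**
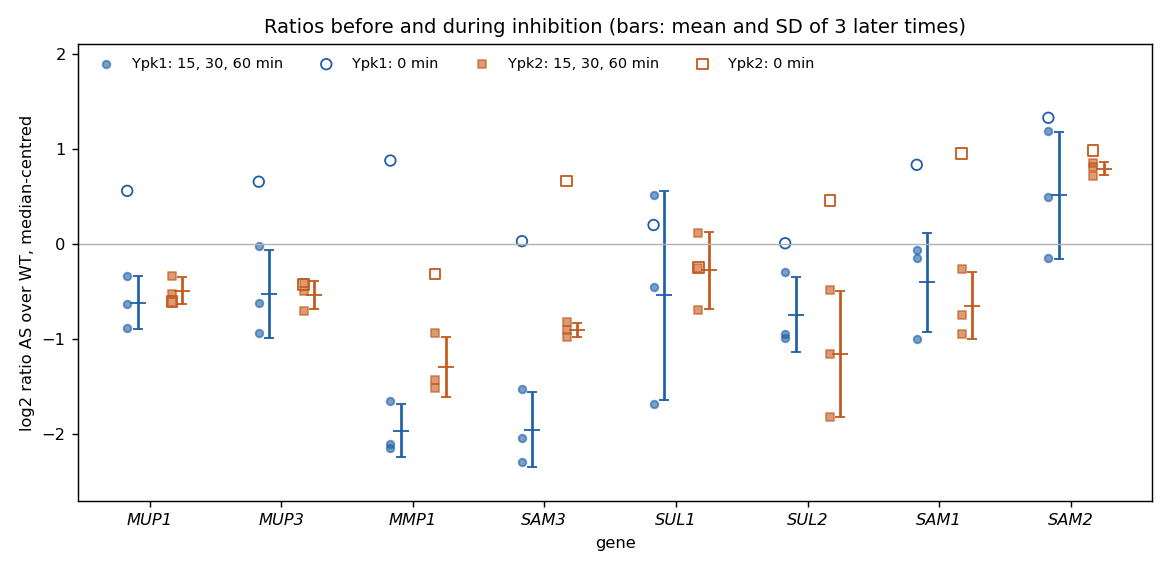
Log2 ratio of AS over WT cells (y axis) for each gene (x axis). Filled points are the 3 later times, open points the 0 min arrays, and the bars give mean and SD of the later times, with circles for Ypk1 and squares for Ypk2. The Ypk1 bars of MMP1 (−1.96) and SAM3 (−1.95) lie lowest, and all later SAM2 values of the Ypk2 series lie between 0.71 and 0.85.

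SAM1 and SAM2 encode closely related enzymes that catalyse the same reaction. Their ratios parted after inhibitor in the Ypk2 series, whereas in the Ypk1 series they first came level. On the array of the WT strains, with no inhibitor, the gap of SAM2 over SAM1 was −1.18. In the Ypk2 series SAM1 stood at 0.95 at 0 min and SAM2 at 0.98, a gap of 0.03. SAM1 was then at −0.94, −0.74 and −0.26, below its 0 min value at every later time. SAM2 was at 0.81, 0.71 and 0.85, close to where it began. The gap of SAM2 over SAM1 was therefore 1.75, 1.46 and 1.11 at 15, 30 and 60 min. The later ratio was −0.65 ± 0.35 (SD, n = 3; adjusted p = 0.132) for SAM1 and 0.79 ± 0.07 (SD, n = 3; adjusted p = 0.0859) for SAM2, and neither passed.

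In the Ypk1 series the pair began at 0.83 for SAM1 and 1.32 for SAM2. SAM1 then took values of −0.06, −0.15 and −1.005, while SAM2 took −0.15, 0.49 and 1.19. The gap of SAM2 over SAM1 was −0.09, 0.64 and 2.19, so the genes were level at 15 min and furthest apart at 60 min. The later ratio was −0.41 ± 0.52 (SD, n = 3; adjusted p = 0.273) for SAM1 and 0.51 ± 0.67 (SD, n = 3; adjusted p = 0.188) for SAM2. Over both series the mean ratio of SAM2 was 0.65 ± 0.18 (SE; adjusted p = 0.0271), above 0 on 5 of 6 later arrays, and that of SAM1 was −0.53 ± 0.18 (SE; adjusted p = 0.0504), below 0 on 6 of 6. The SAM2 call was lost with 30 min left out (adjusted p = 0.144), with 60 min left out (0.166) and when arrays were not centred (0.36, adjusted p = 0.212). SAM1 passed under 5 of its 9 alternatives and not under the other 4. The encoded enzymes are closely related, and a probe that binds both transcripts would bring the ratios together. Such binding was not tested.

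Before the inhibitor the 8 genes were already off 0 in a way that differed by series. At 0 min of the Ypk1 series all 8 lay above 0, from 0.01 for SUL2 to 1.32 for SAM2, with a median of 0.60. SAM2 was at least 2-fold higher there, as were 4.39% of features. At 0 min of the Ypk2 series 4 of the 8 lay above 0 and 4 below, from −0.60 for MUP1 to 0.98 for SAM2, with a median of 0.10. There 0 of the 8 were at least 2-fold higher, against 4.74% of features. SAM1 and SAM2 lay above 0.8 at 0 min in both series. Each 0 min value is a single array with AS cells in Cy5, so strain and dye cannot be told apart in it.

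Set against their own 0 min array, nearly all of the 8 genes lay lower after inhibitor in the Ypk1 series, and fewer did in the Ypk2 series. Each such change rests on 1 array at 0 min, whose spread the fit takes from the later arrays, so the tests of the change are weaker than those of the ratio. With AS Ypk1, 7 of the 8 were below their 0 min value at every later time, all but SUL1, as were 27% of all features. With AS Ypk2, 5 of the 8 were, namely MMP1, SAM3, SUL2, SAM1 and SAM2, as were 28.7% of features. The same 5 were below 0 min at every later time in both series, as were 12.1% of features. For SAM2 in the Ypk2 series these steps were small, from −0.14 to −0.27.

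The 8 genes had a median change of −1.18 with AS Ypk1 and −0.59 with AS Ypk2, against 0.01 and 0.03 over all features. MMP1 had the change furthest from 0 in the Ypk1 series, −2.84 ± 0.43 (SE; adjusted p = 0.0971). SAM3 followed with −1.98 ± 0.42 (SE; adjusted p = 0.189) and SAM1 with −1.24 ± 0.50 (SE; adjusted p = 0.399). With AS Ypk2 the order was SUL2 with −1.61 ± 0.56 (SE; adjusted p = 0.869), SAM1 with −1.60 ± 0.50 (SE; adjusted p = 0.762) and SAM3 with −1.56 ± 0.42 (SE; adjusted p = 0.644), which lie well within their errors of each other. MUP1, MUP3, SUL1 and SAM2 had Ypk2 changes between −0.19 and 0.11.

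By limma 0 of the 8 genes passed for the change in either series, where 0.0482% of all features passed for Ypk1 and 0% for Ypk2. Without adjustment 5 of the 8 were below the 0.05 level in the Ypk1 series, as were 703 of 6220 features, and 4 of the 8 in the Ypk2 series, as were 321 features. MMP1 did pass for the Ypk1 change under 4 of 11 alternatives and not under the others. It passed without centring (−3.35, adjusted p = 0.0222) and after scaling all arrays to an equal spread (−2.89, adjusted p = 0.0261). It also passed with quantile normalization (−2.80, adjusted p = 0.0457) and with array weights (−2.91, adjusted p = 0.0219), which did not converge.

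Whether any of the 8 genes differed between the kinases was tested on the difference itself, Ypk2 minus Ypk1. By limma 0 of the 8 passed for the later ratio and 0 for the change, and 0% of all features passed in either test. Without adjustment 1 of the 8 was below the 0.05 level for the ratio, as were 602 features, and 2 of the 8 for the change, as were 168 features. SAM3 had the widest gap in the later ratio, 1.05 higher in the Ypk2 series, with a 95% interval from 0.37 to 1.73 before adjustment (adjusted p = 0.411). For MMP1 the difference was 0.67, with an interval from −0.02 to 1.35 (adjusted p = 0.516).

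For the other 6 genes the difference of the ratios lay between −0.41 for SUL2 and 0.28 for SAM2. MUP3 had the value nearest to 0, −0.01, with an interval from −0.73 to 0.71, so a gap as large as its later ratios was not resolved. The interval for SUL1, from −0.93 to 1.46, was the widest. The series also used different inhibitors and doses, so kinase, compound and dose cannot be told apart.

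**Figure D3:**
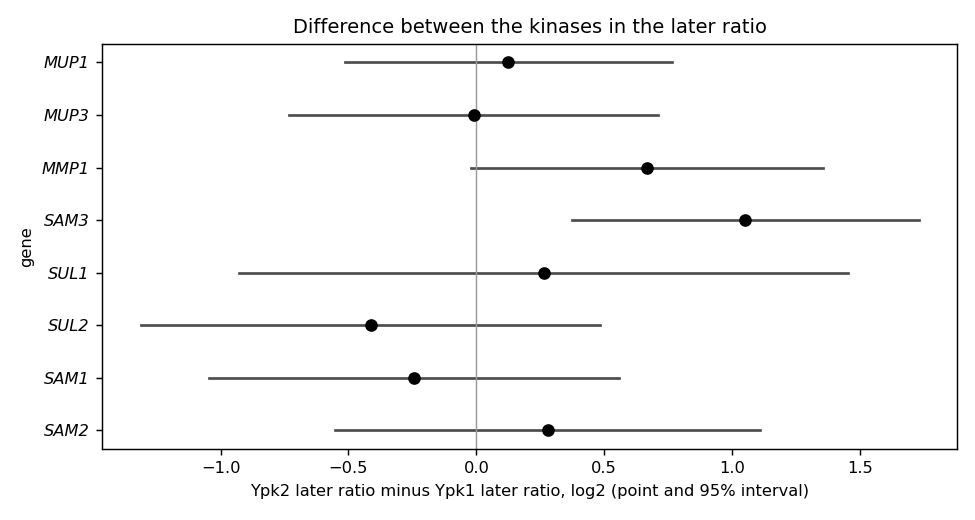
Later ratio of the Ypk2 series minus that of the Ypk1 series on the log2 scale (x axis) for each gene (y axis), with points for the estimate and lines for the 95% interval before adjustment. The interval of SAM3, from 0.37 to 1.73, lies above 0, that of MMP1 reaches −0.02, and none passed after adjustment over all features.

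On the array that set WT Ypk2 against WT Ypk1 cells with no inhibitor, 6 of the 8 genes lay no more than 0.30 from the median, and SAM1 and SUL1 did not. SAM1 stood at 1.18, above 98.6% of features, and was the member at least 2-fold higher there, as were 2.74% of features. SAM2 stood at 0.0016 on the same array, so the synthetase genes were 1.18 apart with SAM1 the higher. SUL1 stood at −0.68, above 8.49% of features. MMP1 was at 0.30, SUL2 at 0.18, MUP1 at 0.17, MUP3 at −0.0032 and SAM3 at −0.07. With a single array these values have no error.

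The genes beside the 8 on their chromosomes gave 15 with values, and among these MHT1 and SAM4 matter for the pathway. MHT1 lies next to MMP1 and encodes the methyltransferase that uses S-methylmethionine, and SAM4 lies next to SAM3 and encodes the related enzyme that uses S-adenosylmethionine, both to turn homocysteine into methionine. MHT1 ran at 0.23, −0.87, −1.09 and −1.64 in the Ypk1 series and at −0.19, −0.89, −0.88 and −0.86 in the Ypk2 series. It was lower in AS cells at every later time, with later ratios of −1.20 ± 0.21 (SE; adjusted p = 0.00630) and −0.88 ± 0.21 (SE; adjusted p = 0.0309). SAM4 ran at 0.86, −1.20, 0.02 and −1.12 in the Ypk1 series and at −0.26, −0.66, −0.71 and −0.65 in the Ypk2 series. Its later ratios did not pass in either series alone (adjusted p = 0.0675 and 0.134), and the mean of both did (−0.72 ± 0.18, SE; adjusted p = 0.0188).

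At every later time in both series MMP1 lay below MHT1 and SAM3 below SAM4. The gaps were between 0.07 and 1.01 for MMP1 and between 0.18 and 1.55 for SAM3. Of all 15 neighbours, 3 passed as lower for the mean ratio of both series, 2 as higher and 10 did not pass, near the 15.1% and 16.1% of all features. The third lower neighbour was VTA1, beside SAM1, at −0.69 (adjusted p = 0.00700), and the higher ones were PCA1, beside SUL1, at 0.77 (adjusted p = 0.0283), and NYV1, beside SUL2, at 0.67 (adjusted p = 0.00697). VTA1 encodes a protein of endosomal sorting, PCA1 a cadmium exporter and NYV1 a vacuolar SNARE.

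**Figure D4:**
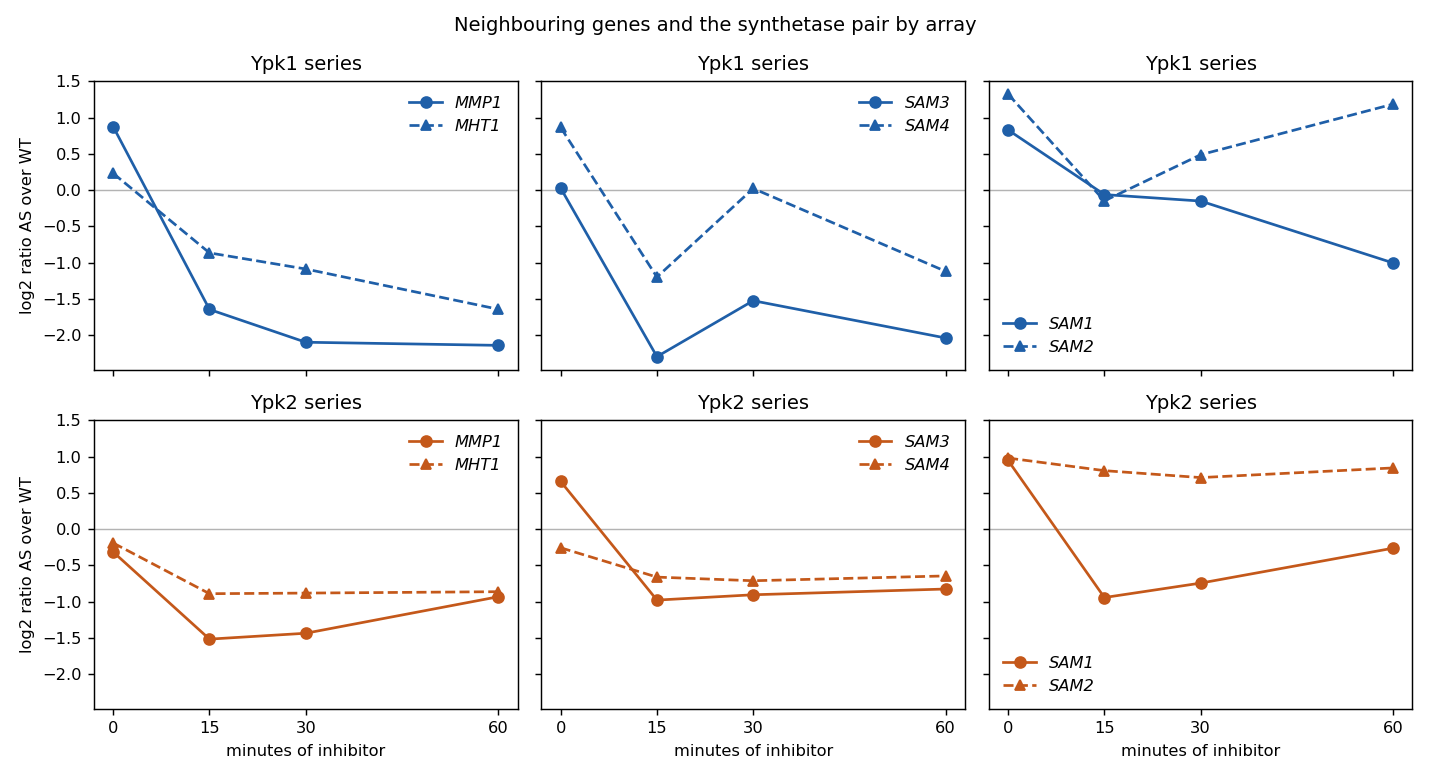
Log2 ratio of AS over WT cells (y axis) against minutes of inhibitor (x axis), with the Ypk1 series above and the Ypk2 series below and 1 array per point. MMP1 lies below its neighbour MHT1 and SAM3 below its neighbour SAM4 at every later time, and SAM2 is up to 2.19 above SAM1, at 60 min of the Ypk1 series.

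The wider sulfur pathway was described with 7 lists of 59 genes, of which 58 could be tested. For the mean ratio of both series 8 passed as higher, 15 as lower and 35 did not pass, and the median was −0.02. In the Ypk1 series 6 were higher and 11 lower, beside 10.9% and 10.5% of all features. In the Ypk2 series 2 were higher and 5 lower, beside 6.98% and 4.73% of all features. For the mean ratio 16.1% of all features passed as higher and 15.1% as lower. The counts for the mean ratio in this and the following paragraphs on the lists are read against those shares.

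In the list of sulfate assimilation and methionine synthesis, 4 of 17 genes were higher, 4 lower and 9 did not pass for the mean ratio, close to the shares over all features, and the median was 0.12. MET1, which makes the siroheme cofactor of sulfite reductase, was lower at −1.59 ± 0.17 (SE; adjusted p = 0.000404). MET2, the homoserine acetyltransferase gene, was lower at −1.22 ± 0.21 (SE; adjusted p = 0.00301), and MET14, the adenylylsulfate kinase gene, at −0.94 ± 0.21 (SE; adjusted p = 0.0101). MET14 already stood at −0.75 and −0.78 at 0 min of the Ypk1 and Ypk2 series. It stood at −0.50 on the array of the WT strains, so its lower ratio did not begin with the inhibitor. MET17, which joins sulfide to acetylhomoserine, was higher at 1.08 ± 0.20 (SE; adjusted p = 0.00401). MET17 was above 0 on all 9 arrays, with 1.07 and 0.97 at 0 min and 0.91 on the array of the WT strains, so its higher ratio did not begin with the inhibitor.

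Among 9 other transporters and enzymes of sulfur compounds, 3 were lower, 2 higher and 4 did not pass for the mean ratio, beside shares of 15.1% lower and 16.1% higher over all features. YCT1, the cysteine transporter gene, was lower at −1.38 ± 0.17 (SE; adjusted p = 0.000750), with −1.36, −2.02 and −2.36 in the Ypk1 series and −0.60, −1.16 and −0.76 in the Ypk2 series. It thus stood near MMP1 and SAM3 in size. SSU1, the sulfite pump gene, was lower at −0.86 ± 0.14 (SE; adjusted p = 0.00256), and already stood at −0.72 at 0 min of the Ypk1 series. JLP1, which releases sulfite from sulfonates, was higher at 1.60 ± 0.20 (SE; adjusted p = 0.000735) and reached 2.73 at 60 min of the Ypk2 series. PET8, the mitochondrial S-adenosylmethionine carrier gene, was higher at 0.92 ± 0.18 (SE; adjusted p = 0.00634), the opposite side of 0 from the plasma membrane permease SAM3.

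For the mean ratio of 8 genes that use or recycle S-adenosylmethionine, 4 did not pass, 3 were lower and 1 was higher. SAH1, which breaks down S-adenosylhomocysteine, was higher at 1.31 ± 0.22 (SE; adjusted p = 0.00297) and stood at 0.87 and 1.21 at 0 min. SPE2, which diverts S-adenosylmethionine to polyamines, was lower at −0.96 ± 0.14 (SE; adjusted p = 0.00154), and MHT1 and SAM4 were the others. Of 5 methionine salvage genes, 2 were lower and 3 did not pass, with MEU1 at −0.57 ± 0.15 (SE; adjusted p = 0.0239) and MRI1 at −0.54 ± 0.17 (SE; adjusted p = 0.0457). At 0 min of the Ypk2 series MEU1 already stood at −0.55 and MRI1 at −0.67. Of 5 cysteine and transsulfuration genes, STR3, the cystathionine beta-lyase gene, was the one that passed for the mean ratio, higher at 0.71 ± 0.20 (SE; adjusted p = 0.0250), and it passed in neither series alone (adjusted p = 0.127 and 0.110). STR3 stood at −0.79 at 0 min of the Ypk1 series and already at 0.65 at 0 min of the Ypk2 series. CYS4, which makes cystathionine, passed as higher for the Ypk1 ratio (0.94, adjusted p = 0.0168).

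Of 6 regulators of the pathway, only MET32 passed for the mean ratio, lower at −0.53 ± 0.16 (SE; adjusted p = 0.0342), and 0 passed by limma in either series alone. Without adjustment 1 of 6 was below the 0.05 level in each series, as were 2289 of 6220 features for Ypk1 and 1714 for Ypk2. CBF1 lay between −0.39 and 0.22 on 7 of the 8 time course arrays and at 3.70 on the Ypk1 60 min array. Of 8 tested genes of permease traffic and amino acid sensing, 2 were lower and 6 did not pass. STP2, a transcription factor activated by the amino acid sensor, stood at −0.77 ± 0.18 (SE; adjusted p = 0.0143), and SSY5, the protease that activates it, at −0.75 ± 0.19 (SE; adjusted p = 0.0195). LDB19, the arrestin that guides Mup1 to Rsp5, had −0.44 (adjusted p = 0.0539). At 0 min of the Ypk2 series STP2 already stood at −0.41 and LDB19 at −0.43.

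**Figure D5:**
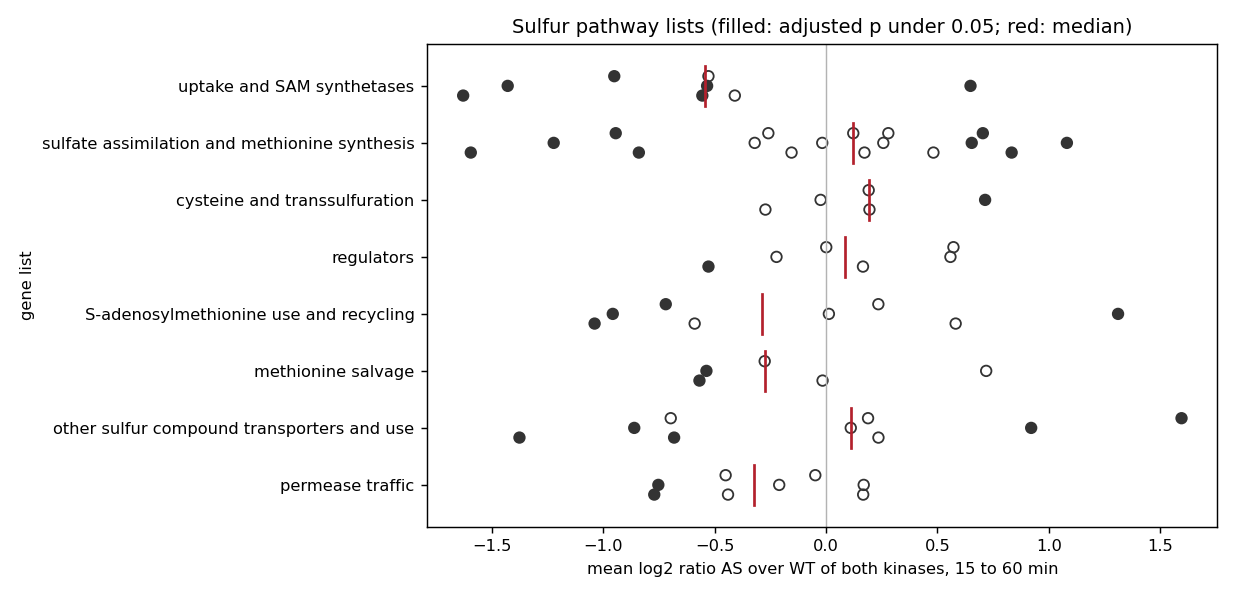
Mean log2 ratio of AS over WT cells over the later times of both series (x axis) for each gene of the 8 genes and 7 pathway lists (y axis), with filled points for adjusted p under 0.05 and a red line for the median of the list. The 8 uptake and synthetase genes have a median of −0.54, and the list of sulfate assimilation and methionine synthesis spreads from −1.59 to 1.08.

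Among the 8 genes, the patterns over the 8 time course arrays were alike within some functional pairs and not within others, as a description over arrays that share strains and inhibitors. Pearson's r was 0.91 for MUP1 with MUP3, 0.89 for SUL2 with SAM1 and 0.80 for MMP1 with SAM3. It was 0.41 for SUL1 with SUL2 and 0.14 for SAM1 with SAM2. SUL1 correlated with no other member above 0.48, its value with MMP1.

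Outside the 8 genes, the features most like each member were taken by the same measure over the same 8 arrays. MAK21 (r = 0.99), RPC19 (0.98) and ELP3 (0.98) were nearest to SAM3, and ARX1 (0.965), VBA4 (0.96) and PCL10 (0.95) to MMP1. Genes of the sulfur pathway appeared for 4 members: MET2 for SUL2 (r = 0.97) and for SAM1 (0.92), SAM4 for MUP3 (0.96) and MDE1, a methionine salvage gene, for SAM2 (0.96). How often such genes are nearest to other features was not tested. For SUL2 the likeness shows in the values, since MET2 ran at 0.04, −0.60, −1.44 and −1.50 in the Ypk1 series and at 0.39, −1.90, −1.34 and −0.55 in the Ypk2 series.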

How the data were processed

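The authors deposited 1 table of log2 ratios, with a value per feature for each of 9 two-colour arrays. That the deposited ratios are log2 follows from the numbers: as powers of 2, 100% of the testable entries fall on a grid of 0.001, against 12.3% as log10. Normalization, scanner and array design are not given in the sources used here, and no intensities were used, so the number of arrays limits precision. Gene names came from the RefSeq R64 gene table by systematic name (5777 of 6268 features), which was used for names and neighbours only. No sequences were available to print.

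The median of each array was subtracted first. The linear model of limma 3.58.1 (R 4.3.3) covered the 6220 features measured on all 8 time course arrays, and 48 others were left out. It held 1 mean per kinase before inhibitor and 1 after, with 4 residual degrees of freedom and Benjamini-Hochberg adjustment over all 6220 features. The lone 0 min arrays are assumed to vary like the others. The 8 members and the 7 lists were chosen with earlier results of these data known. The rule for names took all members, their chromosomal neighbours, up to 4 genes of each list with the largest mean ratio, and the 3 features most correlated with each member. A planned search for promoter motifs was not run. Alternatives changed the centring, scaling, weights, set of features, baseline and times.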

Additional observations from a re-analysis of the deposited data

Results flagged for a closer look

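CYS4, which makes cystathionine from homocysteine, lay on opposite sides of 0 in the series. Its ratio was above 0 at all 3 later times of the Ypk1 series (mean 0.94) and below 0 at all 3 of the Ypk2 series (mean −0.55), and its mean change from 0 min was 1.08 and −0.94. The Ypk1 ratio passed as higher (adjusted p = 0.0168) and the Ypk2 ratio did not pass (adjusted p = 0.134). The tests of the difference itself did not pass (adjusted p = 0.404 for the ratio and 0.998 for the change). CBF1, which encodes a DNA-binding partner of Met4, likewise lay above 0 at all later Ypk1 times (mean 1.27) and below 0 at all later Ypk2 times (mean −0.16), and the Ypk1 mean rests on the value of 3.70 at 60 min. The test of the difference for CBF1 did not pass (adjusted p = 0.613). None of the 8 uptake and synthetase genes had every later ratio, or every later change, on opposite sides in the series. How often this holds over all features was not counted, so neither the flagged genes nor their absence among the 8 is read as a result.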

How the results depend on the processing

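Of 568 values for single genes of the 8 under the alternatives, 505 kept their direction and their side of the threshold, 27 newly passed, 19 no longer passed and 17 changed sign. The calls of MMP1 and SAM3 in the Ypk1 series and in the mean of both series held in all alternatives run. Of the 8 genes, 4 passed for the Ypk1 ratio without centring, where 1549 of 6220 features did, and 8 for the Ypk2 ratio with array weights, which did not converge. Leaving out a later time gave 0 to 1 for the Ypk2 ratio and 2 to 4 for the mean ratio. The shares of all features in the main fit do not apply to these counts, which are not read as a loss particular to the 8 genes. For the Ypk1 change 1 passed without centring, 1 with arrays scaled to an equal spread, 1 with quantile normalization and 2 with array weights, and for the Ypk2 change 3 passed with array weights. The shares of all features for the change under these settings are not given here, so these counts are not read as a result about the 8 genes. Calls over all features moved too: 4157 passed for the Ypk2 ratio with array weights against 728, 0 without 30 or 60 min, and for the Ypk1 ratio 257 without 30 min and 311 without 60 min against 1335.

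None of the signs that turned belonged to a call. The Ypk2 change of MUP1 was −0.47 against the mean of both 0 min arrays. With equal spread and with quantile normalization, the Ypk2 change was 0.079 and 0.15 for MUP3 and 0.050 and 0.075 for SUL1, the difference of ratios of MUP1 was −0.025 and −0.051, and the difference of changes of SAM3 was −0.36 and −0.25. Without centring the difference of changes of SAM1 was 0.10. With a later time left out, SUL1 ran from −1.07 to 0.031 for the Ypk1 ratio and from −0.23 to 0.18 for the Ypk2 change. The difference of ratios then ran from −0.24 to 0.32 for MUP3, from −0.10 to 0.78 for SUL1, from −0.85 to 0.14 for SUL2, from −0.74 to 0.075 for SAM1 and from −0.0595 to 0.59 for SAM2. The cause was not tested. The labels give no replicate numbers. With the matched times of both series as a block, 0 of the 8 genes passed by limma for the difference of ratios or of changes, and SAM3 had an adjusted p of 0.469 for the first.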
